A study of Mus musculus with 4 samples.

Results

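The genes described here encode the potassium channels (symbols starting with Kcn), the voltage-gated sodium channels (Scn and a digit), the pacemaker channels (Hcn and a digit) and the connexins (Gja, Gjb and Gjc) of the mouse, measured in embryonic heart ventricle with and without HDAC2. They were chosen by gene symbol alone, as every probe set that names 1 such gene in the platform's annotation, which gave 219 of the 45037 probe sets other than controls, for 108 of the 18193 genes that a probe set names alone. Of these genes, 3 (Kcnq1ot1, Kcnmb4os1 and Kcnmb4os2) are noncoding transcripts that carry a channel's name. A probe set is a group of short probes for one stretch of transcript, and on each array it is called Present, Marginal or Absent against its own mismatched probes. The 48 probe sets, of 32 genes, with a Present call on the full pair of arrays of WT, of KO or of both were tested, and the other 171 were counted only.

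Transcripts were read on 4 Affymetrix MOE430v2 arrays, 2 of wild-type embryos (WT) and 2 of littermates deficient in HDAC2 (KO), a class I histone deacetylase. All embryos were at day 17.5 of a C57BL/6 X SV129 cross, and each array took 6 µg of total RNA from pooled ventricles, of 2 animals in WT and of 3 in KO. How the Hdac2 allele was made, in which cells it is lost and the sex of the embryos in each pool are not given in the sources used here, and sex-linked transcripts differed between the groups. Xist, made from the inactive X chromosome, read 80.5 and 90.1 in WT, with 548 and 794 in KO (adjusted p = 8.1e-07 in limma). Of 3 tested Y-linked genes, Eif2s3y and Uty were lower in KO (adjusted p = 0.0105 and 0.0138 in limma) and Kdm5d was not called (0.0883). Genotype and the sex make-up of the pools therefore cannot be told apart in any difference below. Genotype was taken from the sample titles, since the KO samples' source label reads as wild type. The brightest Hdac2 probe set read 1189 and 1421 in WT, with 31.4 and 21.0 in KO (adjusted p = 2.32e-09 in limma, or 0.0771 with the deposited signal log ratio, an array's log2 ratio to a baseline array, in place of the log2 signal). The labels do not say whether pools shared animals or cultures, so p-values measure only the spread between these pools.

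Every beat depends on these proteins in turn. Sodium channels fire the upstroke of the action potential, potassium channels of several families repolarise the cell and hold its resting voltage, pacemaker channels carry the inward current of spontaneously active cells, and connexins join neighbouring cells through gap junctions at the intercalated disc. In the late embryo the ventricle is moving from a fetal to a more adult set of these currents. Because whole ventricle was used, fewer cells of a type and less RNA per cell cannot be told apart.

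The start regions of 3 genes are shown because they hold the smallest p below and above WT among the tested probe sets: Kcnip2 and Gja1 on the lower side and Kcnj5 on the higher side. None of the 3 genes had an adjusted p under 0.05 in limma. For Kcnip2 and Gja1 the choice rests on 1 probe set each, farther below WT than the gene's other tested probe sets. That of Kcnip2 was tested through its Present calls in WT alone, where it is high. Each line gives the 250 bases before the RefSeq start (GRCm38.p6), read 5′ to 3′ along the gene's own strand. The windows are chr19:45816064-45816313 (minus strand), chr10:56377050-56377299 (plus strand) and chr9:32344345-32344594 (minus strand). Capitals mark matches to the GC box that Sp1 binds, spelled GGGCGG, and to the E-box, spelled CANNTG.
Kcnip2: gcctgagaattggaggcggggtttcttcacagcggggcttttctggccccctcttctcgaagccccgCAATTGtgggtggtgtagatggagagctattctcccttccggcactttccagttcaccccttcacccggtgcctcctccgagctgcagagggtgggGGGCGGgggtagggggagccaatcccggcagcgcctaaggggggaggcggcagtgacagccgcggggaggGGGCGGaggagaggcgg
Gja1: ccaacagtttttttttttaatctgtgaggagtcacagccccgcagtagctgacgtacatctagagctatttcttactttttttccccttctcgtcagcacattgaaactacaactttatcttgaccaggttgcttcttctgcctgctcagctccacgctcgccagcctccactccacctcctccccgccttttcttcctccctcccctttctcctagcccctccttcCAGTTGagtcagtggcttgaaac
Kcnj5: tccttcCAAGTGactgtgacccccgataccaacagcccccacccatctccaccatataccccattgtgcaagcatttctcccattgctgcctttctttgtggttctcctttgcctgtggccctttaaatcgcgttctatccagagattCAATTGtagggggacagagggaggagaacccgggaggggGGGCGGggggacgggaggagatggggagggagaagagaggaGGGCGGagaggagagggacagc
Kcnip2 and Kcnj5 each hold 2 GC boxes in this window and Gja1 holds none, and the 3 windows are 66.8%, 58.0% and 50% G or C. Both strands were searched for these, for the TATA box, spelled TATAAA, and for the core that T-box factors bind, spelled GGTGTG. No matches overlapped, and the last 2 motifs have no match in the 3 windows. Among 32851 RefSeq windows of the same length, the GC box occurs in 32.7%, the E-box in 66.2%, the TATA box in 12.4% and the T-box core in 16.3%. Among the 27 windows of tested channel and connexin genes (23 of the 32 genes have an entry), the shares are 44.4%, 59.3%, 3.7% and 18.5%.

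No channel or connexin probe set passed the threshold of the comparison between KO and WT. Of the 48 tested, 0 were higher and 0 lower at an adjusted p under 0.05 in limma, where 1.34% of all 19065 probe sets tested were called (0.383% higher and 0.96% lower). At an unadjusted p under 0.05 there were 7, 1 higher and 6 lower. That share, 14.6%, stands beside 15.5% of all probe sets tested. By direction, the shares of all probe sets tested at that unadjusted p were 7.29% higher and 8.23% lower. Both KO arrays lay below both WT arrays at 16 of the 48 and above them at 8, where all probe sets tested give 22.5% below and 25% above. Some of the lower ones entered the test through Present calls in WT alone, where they are higher. Among the 37 Present on all 4 arrays, 5 were lower and 1 higher at that unadjusted p. Of these 37, 14 lay below WT on both KO arrays and 6 above. With only such probe sets fitted, 16.2% of channels and connexins and 15.9% of all had an unadjusted p under 0.05. The median KO minus WT difference was -0.094 on the log2 scale over the 48 (29 negative, 19 positive), and 0.014 over all probe sets tested.

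**Figure D1:**
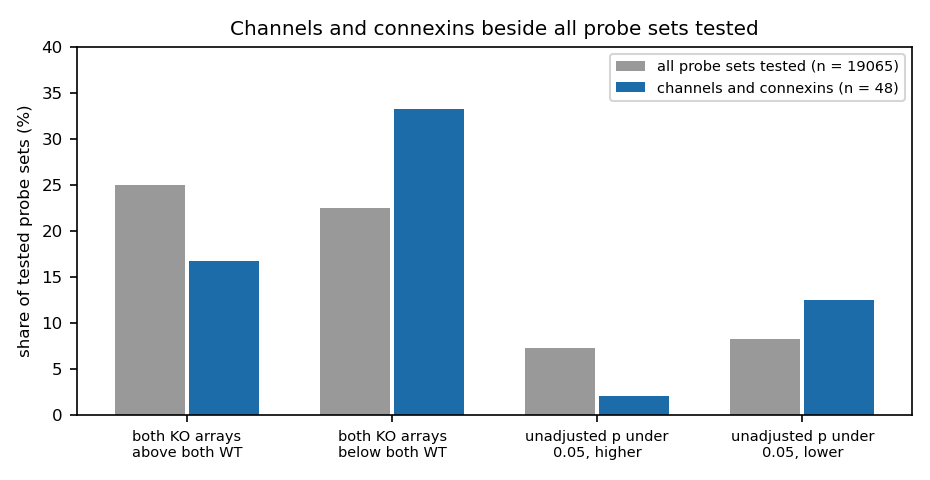
Share of tested probe sets, in percent, that lay wholly above or below WT on both KO arrays or had an unadjusted p under 0.05 in each direction, for all 19065 probe sets tested (grey) and the 48 of channels and connexins (blue). For channels and connexins, 33.3% lay below WT on both KO arrays and 16.7% above. These shares include members that passed the filter on detection through WT alone or KO alone.

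The size of change these arrays could bound varied with the gene. The 95% interval of the difference lay within 2-fold either way for 38 of the 48 probe sets, or 79.2%, where 85.1% of all probe sets tested met that bound. It lay within 1.5-fold for 20, or 41.7%, against 47.7%. By detection, 37 passed the filter through both groups, 5 through WT alone and 6 through KO alone. The 37 probe sets Present on all 4 arrays had a median standard error (SE) of 0.16 on the log2 scale, and the 11 others had one of 0.36. A p that misses the threshold does not show that a gene did not differ; the interval gives the sizes that remain possible.

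**Figure D2:**
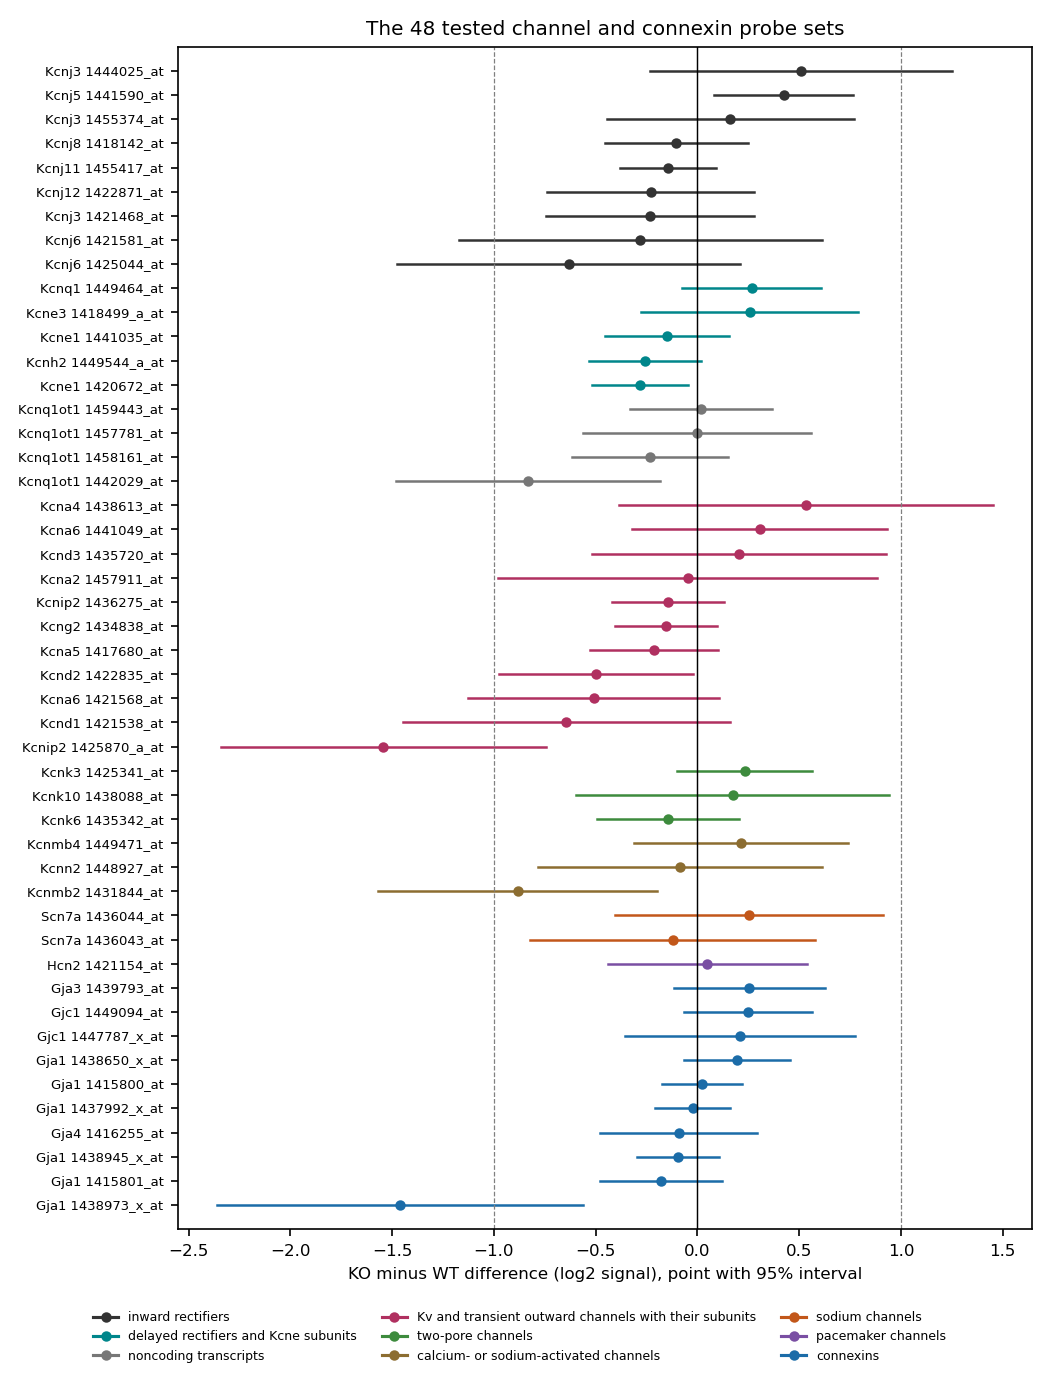
KO minus WT difference in log2 signal with its 95% interval for each of the 48 tested probe sets, coloured by role, from limma with n = 2 arrays per group. Dashed lines mark a 2-fold change either way, and the points farthest from 0 are Kcnip2 1425870_a_at at -1.54 and Gja1 1438973_x_at at -1.46, neither past the adjusted threshold.

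Among the inward rectifiers, which set the resting voltage and answer to metabolism or to acetylcholine, 9 probe sets of 6 genes were tested, with 0 called and 1 at an unadjusted p under 0.05. That one was Kcnj5, a subunit of the acetylcholine-activated channel. Kcnj5 (1441590_at) read 224 and 237 in WT, with 281 and 339 in KO. Both KO arrays were above both WT arrays, by 0.42 ± 0.16 (SE, n = 2 arrays per group), with an adjusted p of 0.231 in limma. The other Kcnj5 probe set, 1421762_at, had no Present call and was not tested. It read 33.1 and 25.2 in WT, with 16.6 and 4.8 in KO. The partner subunit of Kcnj5 in that channel, Kcnj3, was spread over 3 tested probe sets that differed in sign. Kcnj3 (1421468_at) read 95.8 and 87.3 in WT, with 89.5 and 67.6 in KO, while the other 2 stood at 0.16 ± 0.28 and 0.51 ± 0.35. The probe set at 0.51 passed the filter on detection through KO alone, where it is higher, so nothing is drawn from its sign. Those at -0.23 and 0.16 passed through both groups. The groups overlapped at 1421468_at, with the higher KO array between the WT arrays.

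The pore genes of the ATP-sensitive channels, which couple metabolism to voltage, were both detected on all arrays. Kcnj11 read 1230 and 1181 in WT, with 1117 and 1064 in KO, a difference of -0.14 ± 0.11 (adjusted p = 0.548 in limma). Its 95% interval, -0.38 to 0.09, keeps the change well inside 1.5-fold, and both KO arrays were below WT. Kcnj8, the pore subunit prominent in vascular smooth muscle, read 229 and 211 in WT, with 196 and 213 in KO, so the groups overlapped. Kcnj12, one of the strong inward rectifiers of the resting current, read 100 and 79.7 in WT, with 81.9 and 70.9 in KO (-0.23 ± 0.24). Its best-known relative Kcnj2 had no Present call, at signals from 0.7 to 2.6. Kcnj6, a subunit best known from neurons, stood at -0.63 ± 0.39 and -0.28 ± 0.41 at its 2 tested probe sets. The first passed the filter on detection through WT alone, where it is higher, and the second through KO alone.

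The delayed rectifiers end the action potential, and 5 probe sets of 4 genes of the Kcnq, Kcnh and Kcne families were tested. Of these, 0 were called and 1 had an unadjusted p under 0.05. Kcne1, the small subunit that slows the Kcnq1 channel, read 1743 and 1724 in WT, with 1535 and 1326 in KO at probe set 1420672_at. Both KO arrays lay below WT there, by -0.28 ± 0.11 (adjusted p = 0.246 in limma). The second Kcne1 probe set, 1441035_at, read 339 and 345 in WT, with 309 and 307 in KO (-0.15 ± 0.14), again without overlap. The sign at 1420672_at turned in the signal log ratio (0.35), an alternative chosen after the data were seen.

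Kcnq1, the pore of the slow delayed rectifier that Kcne1 joins, stood on the other side of 0. It read 293 and 327 in WT, with 419 and 330 in KO, a difference of 0.27 ± 0.16 (adjusted p = 0.438 in limma). Both KO arrays were above WT, replicate 2 by a narrow margin. Kcnh2, the pore of the rapid delayed rectifier, read 686 and 601 in WT, with 548 and 526 in KO (-0.26 ± 0.13, adjusted p = 0.360 in limma). Its KO arrays were both below WT, and the 95% interval runs from -0.53 to 0.02. Kcne3, another small subunit, read 68.9 and 101 in WT, with 111 and 89.5 in KO, with the groups overlapping.

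Kcnq1ot1 is the long noncoding RNA made from the paternal allele within Kcnq1, and it silences neighbouring genes of its imprinted cluster in cis. It had 4 tested probe sets, 0 called. At 1442029_at it read 121 and 86.6 in WT, with 42.4 and 78.0 in KO (-0.83 ± 0.30, adjusted p = 0.212 in limma), with the low value on KO replicate 1. The other 3 did not repeat that gap: their differences were -0.23 ± 0.18, 0.02 ± 0.16 and -0.002 ± 0.26, and the groups overlapped at each. Without KO replicate 1 the first probe set stood at -0.39.

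The transient outward current makes the early notch of repolarisation and is carried by Kcnd pores with the accessory protein Kcnip2. With the other voltage-gated Kv genes and their subunits, 11 probe sets of 9 genes were tested of 67 probe sets of 29 genes. Of the 11, 0 were called, 2 had an unadjusted p under 0.05, both lower, and 7 lay below WT on both KO arrays. Of all probe sets tested, 8.23% and 22.5% did so. Kcnip2 at 1425870_a_at, in both counts, and Kcnd1, in the second, passed the filter on detection through WT alone, where they are higher. Nothing is therefore drawn from these counts. The median difference of the group was -0.15, and no test of the group was made.

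Kcnip2 had the smallest p of all 48. At 1425870_a_at it read 117 and 68.8 in WT, with 44.5 and 21.2 in KO, with 1 of the 2 KO arrays called Present. Both KO arrays lay below both WT arrays, and the probe set passed the filter on detection through WT alone, where it is high, so no fold is given. The difference was -1.54 ± 0.37 and missed the threshold (adjusted p = 0.0646 in limma). The second tested probe set, 1436275_at, read 576 and 584 in WT, with 552 and 499 in KO, a difference of -0.15 ± 0.13 with a 95% interval of -0.42 to 0.13. The interval of 1436275_at lies within 1.5-fold, and that of 1425870_a_at does not. A further one, 1421783_a_at, was Present on 1 array and not tested. Probe set 1425870_a_at passed with the arrays centred on the median of the detected probe sets (adjusted p = 0.0479 in limma). It also passed with 16 or 64 added before the log (0.0493 and 0.0436) and with the replicate number as a block in the fit (0.000908). It did not pass with quantile normalization (adjusted p = 0.0916 in limma), a robust variance prior (0.0618), no variance trend (0.282), no filter on detection (0.383) or the signal log ratio (0.368). With 1 array left out, its difference ran from -2.08 without KO replicate 1 to -1.01 without KO replicate 2. In the signal log ratio 1425870_a_at stood at -1.50 and 1436275_at at 0.10.

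The 3 Kcnd pores differed in sign, but only Kcnd2 passed the filter on detection through both groups. Kcnd1 passed through WT alone and Kcnd3 through KO alone, each the group where it is higher, so nothing is drawn from their signs. Kcnd2 read 123 and 107 in WT, with 73.5 and 89.3 in KO, with both KO arrays below WT (-0.50 ± 0.22, adjusted p = 0.302 in limma). In the signal log ratio the groups overlapped at Kcnd2, at 3.1 and 2.5 in WT, with 2.4 and 2.9 in KO (difference -0.15). Kcnd1, which lies on the X chromosome, read 40.2 and 50.2 in WT, with 39.3 and 21.0 in KO (-0.64 ± 0.37). Kcnd3, the other cardiac pore of this current, read 40.4 and 33.2 in WT, with 51.6 and 34.5 in KO (0.20 ± 0.33), so the groups overlapped. Kcna4, the pore of the slowly recovering part of the current, was above WT on both KO arrays at signals of 15 and 24.1 in WT, with 26.0 and 29.1 in KO, with a wide interval from -0.39 to 1.45.

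The remaining Kv genes gave closer bounds where the signal was high. Kcna5, the pore of the ultrarapid delayed rectifier, read 320 and 330 in WT, with 270 and 291 in KO (-0.21 ± 0.15). Kcng2, a modifier that changes the behaviour of other Kv pores, read 861 and 828 in WT, with 773 and 744 in KO (-0.15 ± 0.12). At both genes the KO arrays lay below WT, and at neither did the difference pass (adjusted p = 0.506 and 0.548 in limma). Kcna6, a Kv pore best known from neurons, gave opposite signs at its 2 probe sets. At 1421568_at it read 62.3 and 53.7 in WT, with 43.6 and 37.8 in KO. At 1441049_at it read 44.3 and 39.7 in WT, Present on both arrays, against 48.8 and 55.0 in KO, Present on neither. There the detection call and the signal went opposite ways, and no fold is given.

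**Figure D3:**
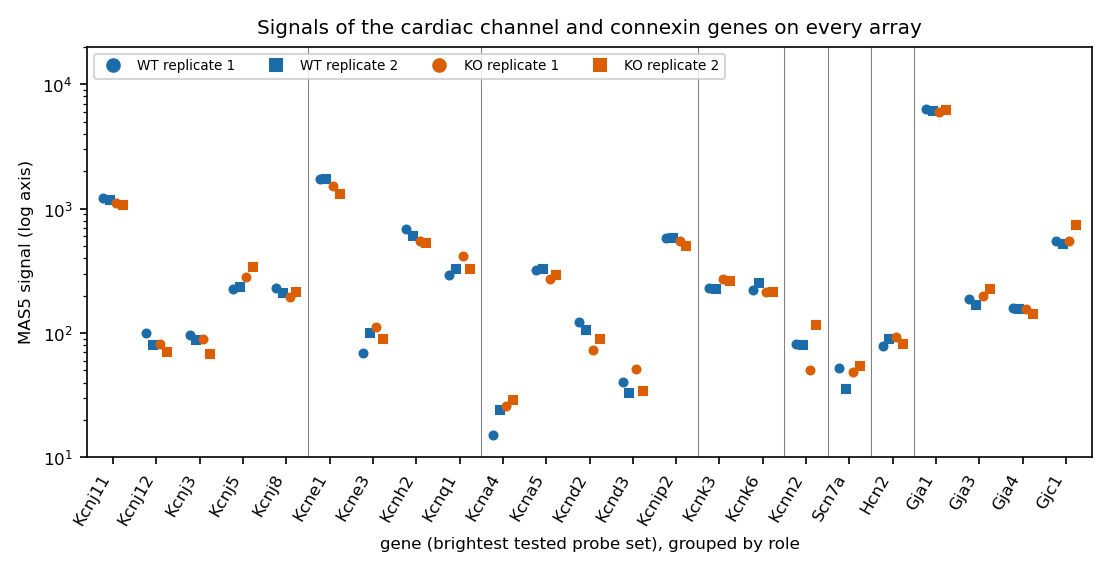
MAS5 signal on each of the 4 arrays (log axis) at the brightest tested probe set of the 23 tested genes of a cardiac channel and connexin list, grouped by role; circles and squares are replicates 1 and 2, blue is WT and orange KO. Kcnj5 is higher than WT on both KO arrays and Kcne1 lower on both, and at Hcn2 and Gja1 the groups overlap.

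Two-pore channels pass the background potassium current. Kcnk3, an acid-sensitive member, read 230 and 226 in WT, with 270 and 264 in KO, above WT on both KO arrays by 0.23 ± 0.15 (adjusted p = 0.488 in limma). Kcnk6 read 222 and 252 in WT, with 213 and 215 in KO, below WT on both (-0.15 ± 0.16). Kcnk10, which passed the filter on detection through KO alone, where its mean is higher, overlapped between the groups. In all, 0 of the 3 genes passed the threshold.

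Channels opened by calcium and their subunits gave 3 tested probe sets, with 0 called. Kcnmb2, an accessory subunit of the large-conductance channel, read 51.6 and 51.8 in WT, with 30.3 and 25.9 in KO (-0.88 ± 0.32, adjusted p = 0.209 in limma). Both KO arrays were below WT, while its other probe set had no Present call, and the pore of that channel, Kcnma1, had none at any of its probe sets. The related subunit Kcnmb4 overlapped (0.21 ± 0.24). Kcnn2, a small-conductance channel, read 81.9 and 80.6 in WT, with 50.7 and 115.5 in KO. Its KO arrays lay on opposite sides of WT, and the difference of -0.09 ± 0.32 turned to 0.51 without KO replicate 1.

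Few sodium and pacemaker channel probe sets were detected. Of 30 sodium channel probe sets of 11 genes, 2 were tested, both of Scn7a, the sodium-sensing channel, at 0.25 ± 0.31 and -0.12 ± 0.33. The second passed the filter on detection through WT alone, where it is higher. Hcn2, a pacemaker channel of ventricle and conduction tissue, read 78.8 and 90.2 in WT, with 93.5 and 81.3 in KO, so the groups overlapped (0.05 ± 0.23). It passed the filter on detection through KO alone, where its mean is higher. The sign of Hcn2 turned without WT replicate 1 or KO replicate 1, and that of Scn7a at 1436044_at without WT replicate 2. Hcn3 and the sodium channel subunit Scn4b had no Present call.

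Among the connexins, 10 probe sets of 4 genes were tested, 0 were called, and 7 had a 95% interval inside 1.5-fold. Gja1 encodes connexin 43, the main gap junction protein of working ventricle, and lies on chromosome 10, as does Hdac2. Its brightest probe set, 1437992_x_at, read 6318 and 6139 in WT, with 6047 and 6210 in KO, overlapping. The difference was -0.02 ± 0.09 (adjusted p = 0.926 in limma) with a 95% interval of -0.21 to 0.16. Probe set 1415800_at read 4640 and 4394 in WT, with 4394 and 4777 in KO (0.02 ± 0.09). A further 3 stood at 0.19 ± 0.12, -0.10 ± 0.09 and -0.18 ± 0.14, all with overlapping groups.

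The sixth Gja1 probe set went its own way. At 1438973_x_at Gja1 read 265 and 187 in WT, with 42.2 and 155 in KO, with the KO replicate 1 array far below the other 3. KO minus WT came to -1.46 ± 0.42 and missed the threshold (adjusted p = 0.115 in limma), but passed without WT replicate 2 (0.0183) and without KO replicate 2 (0.000117), and it was -0.52 without KO replicate 1. With 1 array left in a group, its spread is assumed to be that of the other group, and without KO replicate 2 the one KO array left is the low one. In the signal log ratio this probe set did not differ between the groups, at 6.6 and 6.7 in WT, with 6.6 and 6.7 in KO. The suffix _x_at marks probe sets whose probes may also match other sequences, which 3 of the other Gja1 probe sets share.

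None of the other 3 connexins tested passed in limma, and 0 of their 4 probe sets had an unadjusted p under 0.05. Gjc1, connexin 45 of the early heart and conduction system, read 551 and 523 in WT, with 553 and 735 in KO at 1449094_at (0.25 ± 0.15, adjusted p = 0.435 in limma). Both KO arrays were above WT, the first by a narrow margin, and without KO replicate 2 the difference was 0.04. Gja3 read 187 and 168 in WT, with 198 and 226 in KO, also above WT (0.26 ± 0.17). Gja4, connexin 37 of arterial endothelium, read 160 and 157 in WT, with 156 and 142 in KO (-0.09 ± 0.18). Gja5, connexin 40 of atrium and conduction fibres, had no Present call at signals from 2.3 to 4.7, and the 4 Gjb genes had none either.

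**Figure D4:**
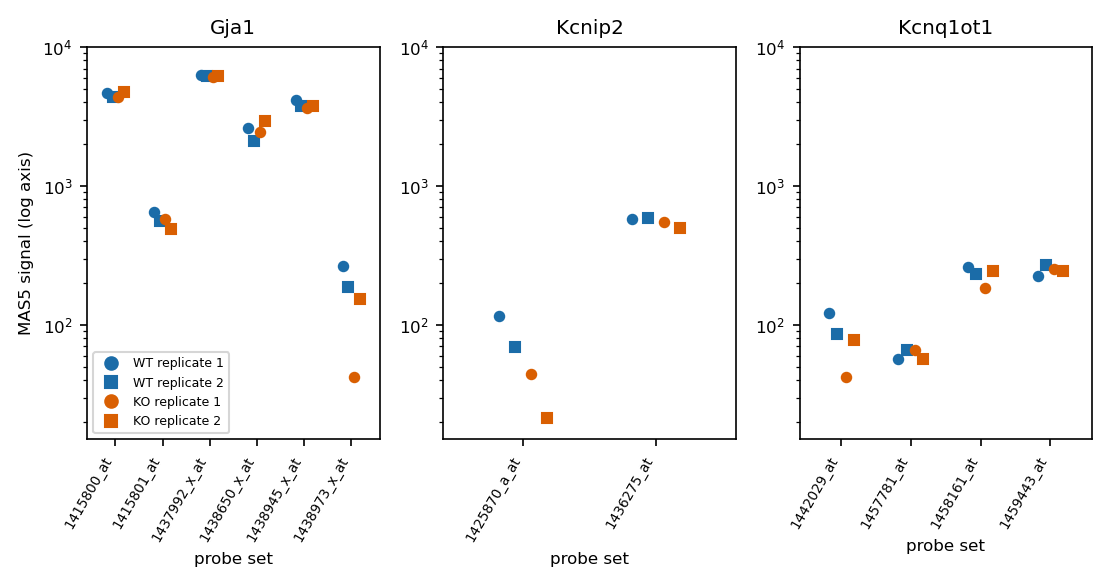
MAS5 signal on each array (log axis) at every tested probe set of Gja1, Kcnip2 and Kcnq1ot1, with circles and squares for replicates 1 and 2, blue for WT and orange for KO. At each gene 1 probe set separates the groups (1438973_x_at, 1425870_a_at and 1442029_at) by more than its other probe sets do.

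In all, 9 genes had more than 1 tested probe set, and at 5 of them (Gja1, Kcna6, Kcnj3, Kcnq1ot1 and Scn7a) these differed in sign. At Scn7a the negative sign is that of a probe set that passed the filter on detection through WT alone, where it is higher. Levels of different probe sets are not compared here, since each set of probes binds with its own strength. Of the 171 probe sets not tested, 19 had a Present call on some array and 152 had none, at signals from 0.1 to 218 with a median of 8.9. No Present call says only that a probe set did not stand above its own mismatched probes. The families Gjb, Kcnc, Kcnf, Kcns, Kcnt, Kcnu and Kcnv had 0 tested probe sets. Of 41 cardiac channel and connexin genes on a fixed list, 35 have a probe set that names them, 23 were tested, and 8 (Kcnj2, Kcne4, Kcnab1, Kcnab2, Kcnk1, Kcnma1, Scn4b and Gja5) had no Present call. The other 6 were not analysed here.

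Proteins that hold these channels at the membrane or build the intercalated disc gave 1 called gene of 30 tested, where 1.34% of all 19065 probe sets tested were called. Jup, plakoglobin, which links desmosomes and adherens junctions to the cytoskeleton, read 791 and 655 in WT, with 480 and 454 in KO, and fell by 0.62 ± 0.13 (adjusted p = 0.0382 in limma). The call for Jup depended on the setting: the adjusted p was 0.367 with WT replicate 1 left out, 0.0853 with KO replicate 2 left out, and above the threshold also without a variance trend (0.268) and without the filter on detection (0.256), where 23 of 19065 and 37 of 45037 probe sets were called in all. At an unadjusted p under 0.05 the list, with Jup, had 2 lower and 1 higher, and its median difference was -0.008. Of all probe sets tested, 8.23% were lower and 7.29% higher at that p, the shares to set beside this list and the next. Of 17 tested transcription factors of the conduction system and of channel genes, 0 passed in limma, with 1 higher and 2 lower at an unadjusted p under 0.05 and a median of -0.20. The smallest p on each side belonged to Irx4, a ventricular homeodomain factor (0.33 ± 0.13, adjusted p = 0.260), and Nkx2-5, a core cardiac factor (-0.30 ± 0.13, adjusted p = 0.280, and 0 in the signal log ratio).

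Markers of the labelled tissue were present, and markers of other tissues differed between the groups. All 10 markers of ventricular cardiomyocytes were detected, with summed signals of 107233 to 109174 in WT and 104434 to 109402 in KO and 0 called. Of 18 skeletal muscle markers, 13 were tested and 11 were lower in KO (median -4.03), with summed signals of 12933 and 13796 in WT, with 1299 and 1373 in KO, while Cacna1s, Pvalb, Myog and Myod1 had no Present call on any array. Of 5 tested bone and cartilage markers, 3 were lower. Of 6 tested atrial markers, Sln was lower (-0.84 ± 0.17, adjusted p = 0.0249 in limma), and of 2 tested erythroid markers, Hbb-y was higher (1.83 ± 0.39, adjusted p = 0.0376). In limma 0 were called of 3 tested glial markers (1 lower at an unadjusted p under 0.05), of 6 of smooth muscle and 8 of endothelium (1 higher each) and of 4 of epithelium (0), and no liver marker was tested. Neuronal markers summed to 140 and 167 in WT, with 204 and 218 in KO over the 3 tested of 12. Of these 3, 0 were called and 1 (Gap43) was higher at an unadjusted p under 0.05. Tubb3, Snap25, Nefm, Prph, Th and Dbh were without a Present call. The actin control's 3′ to 5′ signal ratio, which goes up as RNA is shortened, stood at 1.85 and 2.32 on the WT arrays and at 2.75 and 2.42 on the KO arrays. The part of these differences in the channel and connexin values was not tested.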

How the data were processed

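The authors deposited 1 table per array with, per the file headers, a signal, a detection p-value with its call, and a signal log ratio. The signal is a MAS5 intensity on a linear scale, per the submitters' processing notes. The signal log ratio is deposited on a log2 scale against a baseline array; which array, the MAS5 version and the genome build are not given in the sources used here. All 4 arrays have the same 2%-trimmed mean, 150, and a series table held identical signals.

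Signals under 0.1 were set to 0.1 and taken to log2, then fitted with limma 3.58.1 in R 4.3.3 (lmFit, eBayes with a variance trend), genotype as sole factor, 2 WT against 2 KO arrays. The fit took all 19065 probe sets Present on both arrays of a group, without 64 controls, with two-sided p adjusted by Benjamini-Hochberg over all of them and 0.05 as threshold. The number of arrays limits the precision. Symbols came from the platform's annotation, chromosomes and promoters from RefSeq (GRCm38.p6). The fit was tested on simulated data. Named are members at an unadjusted p under 0.05, for each gene of a cardiac list and each family the brightest one tested, members Present in 1 group only, and, of the partner and factor lists, called genes or else the smallest p on each side. Kcnd1, Kcna6 at 1421568_at, Kcnj6, Kcnk10 and the further probe sets of named genes are outside that rule and were chosen after their values were seen. The members and lists were chosen with earlier results of these data known. The alternatives are those given under the processing heading of the closing section.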

Additional observations from a re-analysis of the deposited data

How the results depend on the processing

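The count of 0 channel and connexin probe sets past the threshold stayed at 0 with quantile normalization, without the filter on detection, with Present on all 4 arrays required, without a variance trend, with a robust variance prior and with the brightest probe set per gene. In the signal log ratio 0 of all 19065 probe sets passed, so the count of 0 there shows nothing about channels and connexins. At an unadjusted p under 0.05 that setting had 9 of the 48 (18.8%, of all 13.3%). Without the filter and without the trend 37 and 23 of all passed the threshold. The count past the threshold was 1 (Kcnip2 at 1425870_a_at) with median centring, with 16 added before the log and with 64 added. Leaving out 1 array gave 0 to 2, with the spread of the group of 1 assumed to be that of the other. At an unadjusted p under 0.05 it gave 3 (6.25%, of all 9.43%) without WT replicate 1 to 9 (18.8%, of all 19.5%) without KO replicate 1, where calls over all probe sets were 163 and 650. The 7 at that unadjusted p became 19 of 219 (8.68%, of all 9.71%) with no filter on detection and 4 of 32 (12.5%, of all 15.7%) with 1 probe set per gene. No source ties the replicate numbers in the titles to a litter or day. Deviations of same-numbered arrays correlated at -0.011, which with 2 arrays per group cannot tell whether the arrays were paired. With the replicate number as a block, the calls were 2 (Kcnip2 at 1425870_a_at and Gja1 at 1438973_x_at), against 721 of all probe sets. The median difference moved from -0.094 by less than the spread between arrays (SD 0.16) in all of these settings, the farthest to -0.23 with no filter on detection.

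Of 442 values of 30 named probe sets under the alternatives, 14 turned sign, and the causes were not tested. Leaving out 1 array, Hcn2 ran from -0.052 to 0.15 (negative without WT replicate 1 or KO replicate 1), Kcnd3 from -0.086 (without KO replicate 1) to 0.49, Kcne3 from -0.018 (without WT replicate 1) to 0.53, Kcnmb4 from -0.013 (without WT replicate 2, and -0.010 without KO replicate 2) to 0.44, Kcnn2 from -0.68 to 0.51 (without KO replicate 1) and Scn7a at 1436044_at from -0.020 (without WT replicate 2) to 0.53. Kcnn2 stood at 0.012 with quantile normalization. In the signal log ratio, chosen after the data were seen, Gja4 and Kcnip2 at 1436275_at stood at 0.10, Kcne1 at 0.35, Kcnk3 at -0.10 and Kcnmb4 at -0.05.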
